A study of Mus musculus with 6 samples.

Results

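A20 cells exposed to TGF-β for 24 h were set against A20 cells exposed for 12 h, both without SP600125. A20 is a B lymphoma line from a BALB/c mouse. The comparison used 2 of the 6 arrays of the study, chosen by the titles that name TGF-β, the time and DMSO, with 1 array for each time. The remaining 4 arrays held cells given TGF-β with SP600125, an inhibitor of the kinase JNK, for 24 h and for 12 h, cells kept for 24 h in SP600125 alone, and untreated cells with DMSO. All 6 conditions were in the same cell line, and the labels do not say whether the arrays came from separate cultures. The pair with SP600125 covers the same step in TGF-β time on separate arrays, and its values are given beside those of the pair without drug. It is not a repeat of that step, because per the labels its cells had 24 h of the drug on the later array and 12 h on the earlier one. TGF-β time and drug time cannot be told apart within it.

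TGF-β binds a pair of serine/threonine kinase receptors that phosphorylate Smad proteins, and it also signals through MAP kinases such as JNK. In B cells it is known as a cytokine that restrains proliferation, favours apoptosis and directs class switching to IgA. Cells that leave the division cycle lose the transcripts of DNA replication and mitosis, which are normally switched on by E2F factors and by complexes that bind paired CCAAT and CHR elements.

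Each value is a signal, the linear intensity of 1 probe set on 1 array. The brightest probe set stood for a gene. The median of all signals, 74.2, served as a floor, and any dimmer signal was lifted to it before taking log2. Differences are log2 of the 24 h signal minus log2 of the 12 h signal, and a fold against a signal at the floor is a bound. The array medians were 74.0 at 24 h and 73.0 at 12 h, and lay between 69.3 and 80.9 over the 6 arrays. On the array of TGF-β 24 h with SP600125 the 18S ribosomal RNA control gave a signal of 5878.2, where the remaining arrays gave 506.5 to 881.5. Its ratio of the 3′ to the 5′ actin probe set was 1.89, where they gave 1.25 to 1.51. The part of these differences in the values with SP600125 was not tested. On the pair without drug these controls were alike, at 855.7 for 18S at 24 h and 881.5 at 12 h, with actin ratios of 1.25 at 24 h and 1.29 at 12 h.

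The B cell identity of the line was plain on both arrays. Cd79b, a signalling chain of the B cell receptor, gave signals of 19064.8 at 24 h and 14271.5 at 12 h. Ms4a1, which encodes CD20, gave 16048.3 at 24 h and 12216.5 at 12 h. Among markers of other cells, 12 of 18 T and NK cell genes were below the floor on both arrays, among them Cd3d, Cd3e, Cd3g and Cd4. So were 11 of 19 myeloid genes (Cd14, Itgam, S100a8 and S100a9 among them) and 11 of 20 fibroblast genes (Col1a1, Dcn and Lum). The same held for 6 of 11 erythroid and platelet genes (Hba-a1 and Alas2), and for 6639 of all 18194 genes. The other members were above the floor on at least 1 array. At 24 h against 12 h, Flt3 gave 796.1 against 696.7, Adgre1 496.6 against 357.3 and Zap70 300.8 against 369.3. Acta2 gave 206.4 against 335.7 and Itga2b 174.3 against 273.6. The signals were summed over all these members, those below the floor included. The sums were 1051.4 at 24 h and 1033.8 at 12 h for T and NK cells, and 2422.8 at 24 h and 2079.2 at 12 h for myeloid cells. They were 1185.9 at 24 h and 1669.0 at 12 h for fibroblasts, and 774.4 at 24 h and 891.1 at 12 h for erythroid cells and platelets. In bulk RNA, fewer cells of a kind and less RNA per cell cannot be told apart.

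Between 12 h and 24 h the larger differences were gains. Of 11555 genes above the floor on at least 1 of the pair of arrays, 191 (1.65%) were at least 2-fold higher at 24 h and 100 (0.865%) at least 2-fold lower. Gains were also the more common differences at moderate and high signal. Among 4284 genes with a mean signal over 1000, 16 were 2-fold higher and 1 was 2-fold lower. Among 3937 genes between 200 and 1000, 68 were higher and 25 lower. Among 3334 genes under 200, 107 were higher and 74 lower, and there the central 95% of differences ran from -0.97 to 1.06, so a 2-fold difference in a dim gene lay near the edge of the spread of all dim genes. With 1 array for each time these counts have no test and no replicate error.

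**Figure D1:**
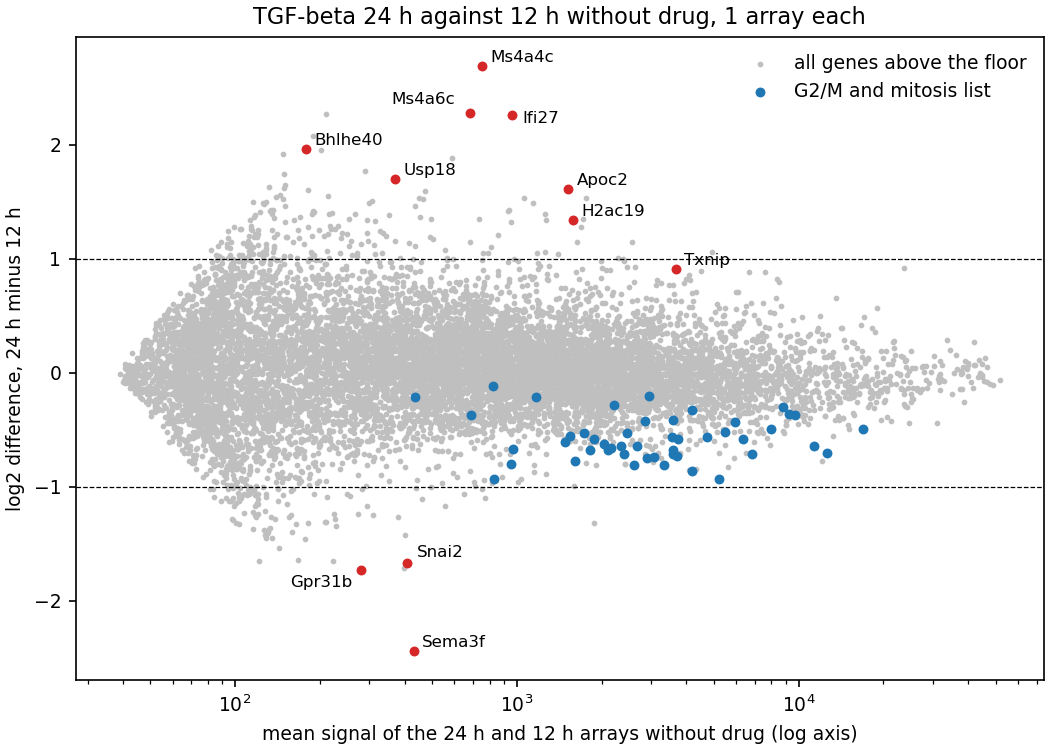
Log2 difference between TGF-β 24 h and 12 h without drug (vertical axis) against the mean signal of the 2 arrays (horizontal log axis), 1 point for each of 11555 genes. Dashed lines mark 2-fold. The blue G2/M genes all lie under 0, between -0.93 and -0.12, and the labelled Ms4a4c and Ms4a6c lie above 2.

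A test was possible only over both drug settings. limma fitted the TGF-β state and the drug to all 6 arrays, with 2 residual degrees of freedom, and gave the mean 24 h minus 12 h difference for 11731 genes. Its drug term took 12 h and 24 h of SP600125 as alike. At a Benjamini-Hochberg adjusted p under 0.05, 2 genes rose (0.017%) and 0 fell (0.0%). At an unadjusted p under 0.05, 975 genes (8.31%) had a positive effect and 819 (6.98%) a negative one. The error of this fit comes from how far single arrays stray from a sum of both terms. The p-values therefore speak of the spread among these arrays, which may be technical. The terms rose and fell are kept here for genes that passed it, and higher and lower describe the arrays.

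The first gene that rose was Ms4a6c, a member of the family of 4-span membrane proteins to which CD20 belongs. Without drug its signal was 19.4 in untreated cells, 233.6 at 12 h and 1132.5 at 24 h. With SP600125 it was 88.6 without TGF-β, 272.2 at 12 h and 1997.0 at 24 h. The gain from 12 h to 24 h was 4.85-fold without drug, and the limma effect was 2.58 ± 0.25 (SE) with an adjusted p of 0.0441. The signal at 24 h exceeded that at 12 h in both pairs.

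The second was H2ac19, which encodes a histone H2A. Its signal was 2266.8 at 24 h and 895.1 at 12 h without drug, with 943.1 in untreated cells, and 3664.5 at 24 h and 1197.1 at 12 h with SP600125. The 12 h array was thus close to the untreated one, and the gain belonged to the later interval in both pairs. The limma effect was 1.48 ± 0.13 with an adjusted p of 0.0407, and the gene's other probe set gave 1.40. Histone H2A genes are near-identical copies, and its probe set is of a type whose probes also match other genes, so the signal cannot be given to 1 copy. For both genes the adjusted p lay between 0.00266 and 0.672 over the other settings tried, and the count of risen genes ran from 0 to 111 over them.

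The largest gain without drug was that of Ms4a4c, of the same family as Ms4a6c. Its signal was 40.9 in untreated cells, 202.9 at 12 h and 1307.6 at 24 h, which was 6.45-fold higher at 24 h than at 12 h. With SP600125 it was 765.4 at 24 h and 142.8 at 12 h. Its limma effect of 2.56 ± 0.27 had an adjusted p of 0.0532, just outside the threshold. Another member, Ms4a6b, picked out after its values were seen, gave 637.6 at 24 h and 232.3 at 12 h without drug, with 24.1 in untreated cells. Probes of this family may share sequence, and how far they bind each other's transcripts was not tested.

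Ms4a4c, Ms4a6c and Ms4a6b belonged to a class of 24 genes that had already gained over 1.5-fold by 12 h and then gained at least 2-fold more. Their median difference was 1.35 without drug and 0.99 with SP600125. All 24 were above the floor at both times, which the rule of the class itself requires. None had a mean signal under 200, but the rule also keeps out the dimmest genes. In the pair with SP600125, 22 of 24 (91.7%) were also higher at 24 h, against 53.1% of all genes, and 12 of the 24 were at least 2-fold higher there (2.01% of 12005 genes were 2-fold higher in that pair). The balance of that pair depended on the scaling, with 241 genes 2-fold higher and 152 lower as deposited, and 163 higher and 187 lower with each array scaled to the same median. All 24 were higher at 12 h with SP600125 than with SP600125 alone, against 47.4% of all genes. The array of SP600125 alone had 24 h of the drug and the 12 h array 12 h, so drug time and TGF-β cannot be told apart there.

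Within this class Ifi27, an interferon-inducible protein of mitochondria, gave signals of 40.8, 332.1 and 1596.0 at 0, 12 and 24 h. Ifi27l2a, its relative, gave 303.2, 547.7 and 1576.8. On the linear scale both thus added more signal in the later interval than in the first. In log2 the steps of Ifi27 were at least 2.16, from a signal below the floor, and then 2.26. Those of Ifi27l2a were 0.85 and 1.53. The lipoprotein components Apoc2 and Apoc1 gave 98.4, 750.0 and 2295.3, and 33.0, 542.9 and 1359.5 at the same times. Their largest signals were with SP600125, where Apoc2 gave 6433.7 at 24 h and 2136.9 at 12 h, and Apoc1 gave 4142.4 at 24 h and 958.7 at 12 h. B3gnt5, a glycosyltransferase of glycolipid synthesis, gave 924.7 at 24 h and 251.9 at 12 h, a difference of 1.88 that was 0.94 with the mean of its probe sets. The linker histone gene H1f2 gave 1355.6 at 24 h and 505.4 at 12 h, and 4517.4 at 24 h and 1001.1 at 12 h with SP600125, but 1 of its 2 other probe sets gave -0.0 while the other gave 1.51.

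Il10 and Sema3b were the 2 members that were not higher at 24 h with the drug, with differences of -0.30 and -0.47 there. Sema3b was named after its values were seen. Il10, the gene of an anti-inflammatory cytokine, had signals of 202.8, 423.2 and 940.0 at 0, 12 and 24 h without drug. With SP600125 it was 199.0 at 24 h and 245.3 at 12 h. Whether the step differs between the drug settings was not tested, since 1 array for each condition leaves no error for it.

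**Figure D2:**
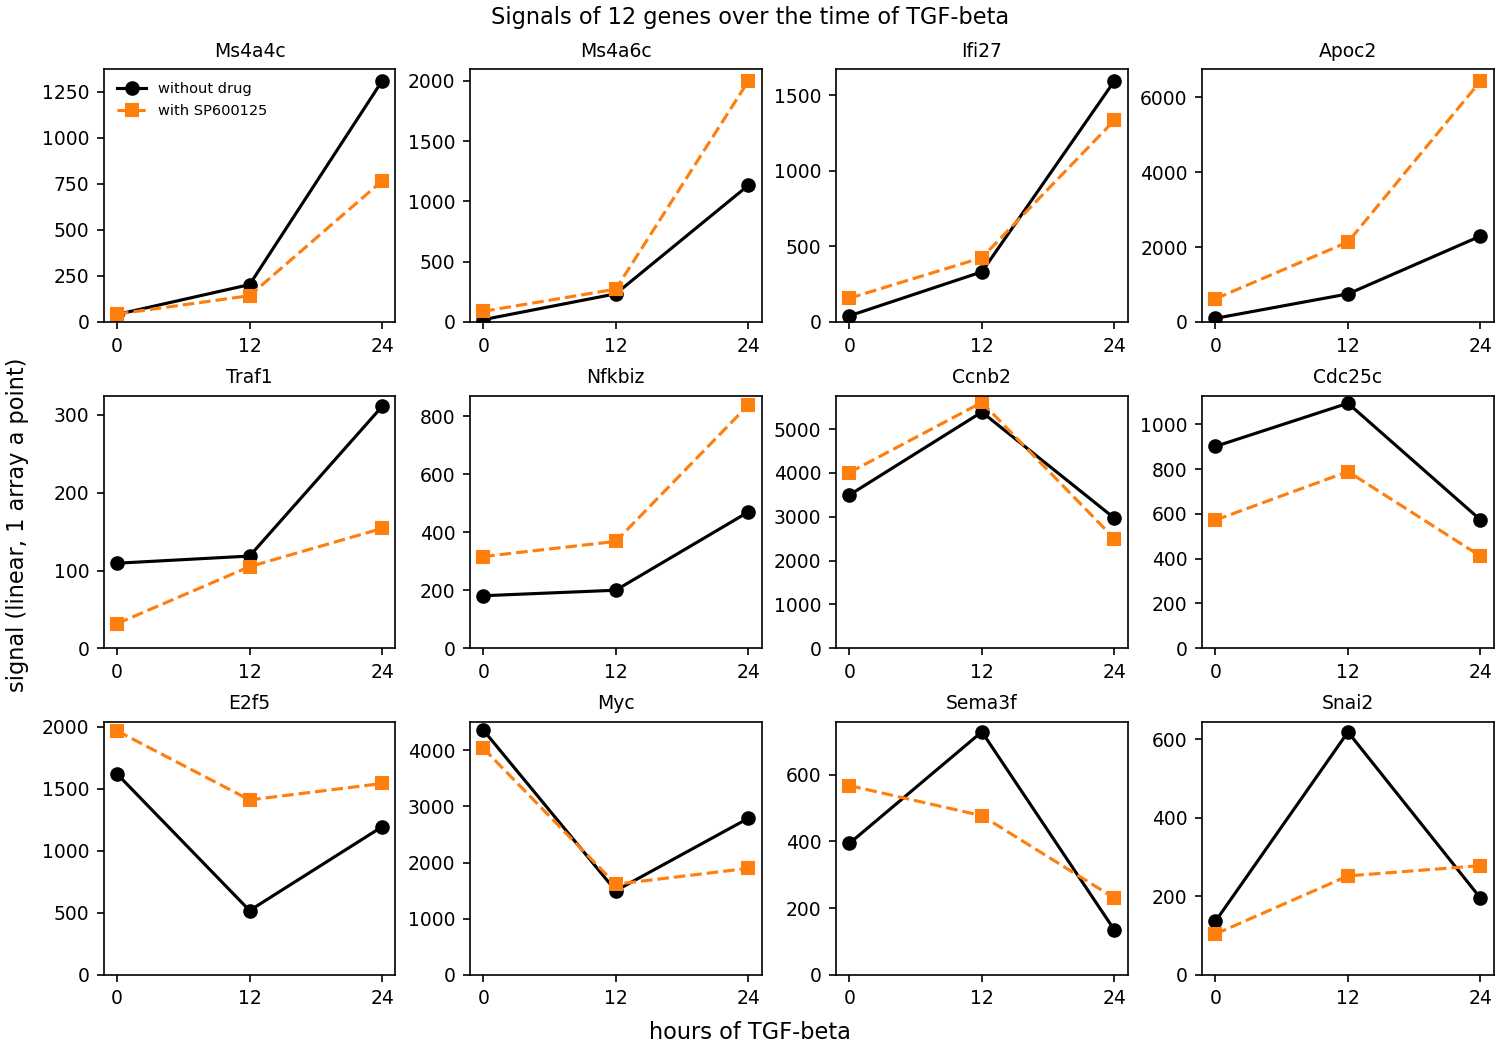
Signals of 12 genes (vertical axes, linear, from 0) at 0, 12 and 24 h of TGF-β, without drug (black circles) and with SP600125 (orange squares, where 0 h is SP600125 alone), 1 array a point. Ms4a4c, Ms4a6c, Ifi27 and Apoc2 are highest at 24 h in both settings, Ccnb2 and Cdc25c are highest at 12 h, and E2f5 and Myc are lowest at 12 h without drug.

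Late gains, with the 12 h signal within 1.5-fold of the untreated one, numbered 100. Of these 82 (82.0%) were also higher at 24 h with SP600125, against 53.1% of all genes. There 15 were 2-fold higher, against 2.01% of all genes in that pair. Their median difference was 1.15 without drug and 0.46 with it, and 58 of the 100 had a mean signal under 200. Bhlhe40, a transcriptional repressor of the circadian and stress responses, gave 288.5 at 24 h and 68.9, below the floor, at 12 h, a gain of at least 3.89-fold. With SP600125 it gave 581.7 at 24 h and 102.2 at 12 h. Its limma effect was 2.23 ± 0.28 with an adjusted p of 0.0532.

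Other late gains were brighter. Tsc22d3, which encodes the glucocorticoid-induced leucine zipper, gave 363.2 at 24 h and 142.8 at 12 h, and 813.2 at 24 h and 400.0 at 12 h with SP600125. Cd69, an early activation marker of lymphocytes, gave 447.5 at 24 h and 131.6 at 12 h, and 502.9 at 24 h and 347.5 at 12 h with SP600125. Klk4, a secreted serine protease, gave 2610.9 at 24 h and 903.1 at 12 h without drug, while with SP600125 it was 746.3 at 24 h and 740.5 at 12 h. The late gains thus held genes that were higher in both pairs, such as Tsc22d3, and genes such as Klk4 that were alike at both times with the drug.

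The mitotic genes were lower at 24 h as a group. All 48 G2/M and mitosis genes measured above the floor were lower at 24 h than at 12 h, against 46.6% of all genes. Their median difference was -0.60, against 0.03 for all genes, and ran from -0.93 to -0.12. None was 2-fold lower, and 24 were at least 1.5-fold lower (4.78% of all genes). With SP600125 the median was -0.73 and 46 were lower, against 40.9% of all genes, and 46 were lower in both pairs, against 24.6%.

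Ccna2, the cyclin of S phase and G2, gave signals of 7798.1, 6824.2 and 3579.5 at 0, 12 and 24 h. Cdc25c, the phosphatase that activates the mitotic kinase, gave 900.9, 1093.4 and 572.9. Its difference was -0.93, but its other probe set gave only -0.13. Ccnb2, a mitotic cyclin, gave 3497.3, 5389.9 and 2969.4. The 12 h signal was the highest of the 3 for Cdc25c and Ccnb2, and the 24 h signal was the lowest for all 3. Aurka, a kinase of spindle assembly, gave 1884.1 at 24 h and 3314.0 at 12 h. Hmmr, a spindle-associated hyaluronan receptor, gave 2413.1 at 24 h and 4235.0 at 12 h, and its 4 other probe sets were lower too.

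The same genes were lower with SP600125. Ccnb2 gave 2502.3 at 24 h and 5610.4 at 12 h there, and Cdc25c 411.2 at 24 h and 788.5 at 12 h. Foxm1, a transcription factor of the mitotic genes, and Cdc25b were the 2 members that were not lower in that pair, with differences of 0.23 and 0.61. At an unadjusted limma p under 0.05, 46 of the 48 had a negative effect, against 6.98% of all genes tested. None passed the adjusted threshold, and the lowest adjusted p in the list, 0.0532, was that of Ccna2 and Ccnb2 among others, with effects of -0.81 ± 0.10 and -1.01 ± 0.13. With the floor at the 60th percentile 33 of the 48 passed, with quantile normalization 7, and with the floor at the 25th percentile 8. The number was 0 with each array scaled to the same median and with the mean of probe sets. It was also 0 with the 4 TGF-β arrays only, with a variance prior without trend and with no filter on low signals. Without the 24 h array with SP600125, whose 18S signal stood apart, the median limma effect of the list was -0.56, and it was -0.67 with all arrays. Against untreated cells the list's median was 0.11 at 12 h and -0.44 at 24 h. These differences share the arrays of the comparison.

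**Figure D3:**
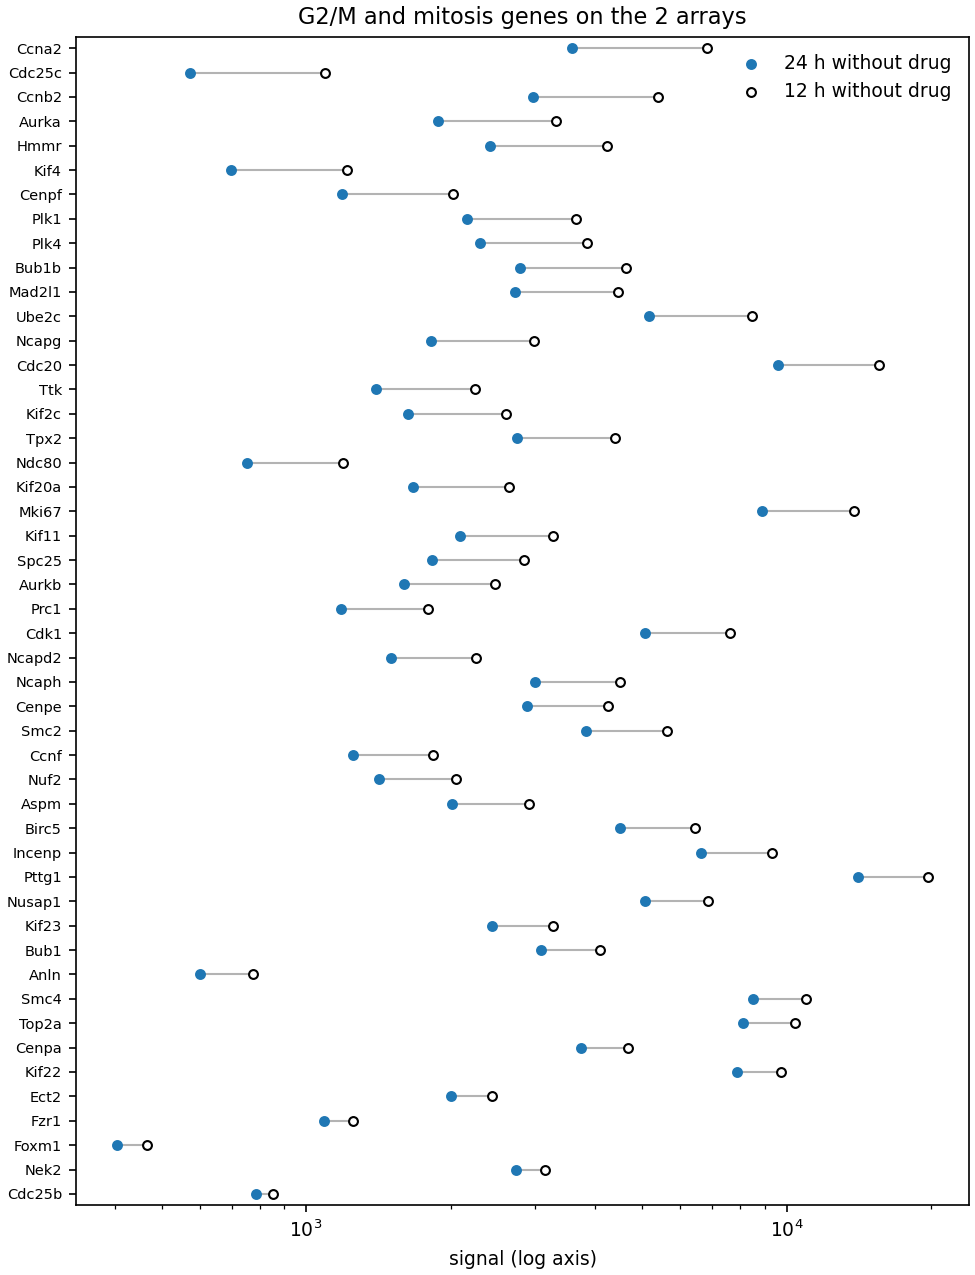
Signals (horizontal log axis) of the 48 G2/M and mitosis genes on the array of TGF-β 24 h (filled) and 12 h (open) without drug, ordered by their log2 difference. Every filled point lies left of its open one, from Ccna2, with 3579.5 at 24 h and 6824.2 at 12 h, at the top.

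The list was written from known roles in mitosis, and many such genes are known for the promoter elements counted here. A CHR element (TTTGAA) together with a CCAAT box, on either strand and at any spacing in a window of 300 bases around the gene start, stood in 25 of the 40 members with a promoter in RefSeq (62.5%). The same pair stood in 5.87% of 9403 promoters of genes above the floor and in 7.97% of all 27025 promoters. At least 2 CCAAT boxes stood in 50.0% of the 40, against 16.8%. The matches describe letters in these windows. The following show the 110 bases before the start of Cdc20, which activates the anaphase-promoting complex, Cdk1, the mitotic kinase, Top2a, a topoisomerase that untangles chromosomes, and Ube2c, a ubiquitin-conjugating enzyme of mitotic exit. They were chosen because both elements are close together in them, and capitals mark CCAAT and CHR on either strand.
Cdc20: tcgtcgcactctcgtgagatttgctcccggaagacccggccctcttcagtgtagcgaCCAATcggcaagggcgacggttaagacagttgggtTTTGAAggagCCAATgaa
Cdk1: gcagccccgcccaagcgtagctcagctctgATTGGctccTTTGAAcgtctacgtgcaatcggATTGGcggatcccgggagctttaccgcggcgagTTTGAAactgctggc
Top2a: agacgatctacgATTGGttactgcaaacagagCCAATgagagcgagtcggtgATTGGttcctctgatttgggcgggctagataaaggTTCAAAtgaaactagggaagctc
Ube2c: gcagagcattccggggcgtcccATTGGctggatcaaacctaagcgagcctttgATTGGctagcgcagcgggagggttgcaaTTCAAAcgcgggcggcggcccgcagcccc
They are from RefSeq on GRCm38.p6, at chr4:118437344-118437453, minus strand, chr10:69352913-69353022, minus strand, chr11:99024190-99024299, minus strand, and chr2:164769819-164769928, plus strand. Cdc20 gave signals of 9601.8 at 24 h and 15570.4 at 12 h, Cdk1 5081.1 at 24 h and 7605.0 at 12 h, Top2a 8105.1 at 24 h and 10405.1 at 12 h, and Ube2c 5168.8 at 24 h and 8451.2 at 12 h. All 4 were lower at 24 h in both pairs.

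The genes of DNA replication were lower by less. Of 41 G1/S genes, 36 were lower at 24 h, against 46.6% of all genes, with a median of -0.33. None was 2-fold lower. With SP600125 40 were lower, against 40.9% of all genes. The median was -0.66 there, with 8 past 2-fold (1.27% of all genes in that pair). At an unadjusted limma p under 0.05, 27 of the 41 had a negative effect (6.98% of all genes tested), and the lowest adjusted p was 0.0651. Gins1, a subunit of the replicative helicase complex, gave 685.1 at 24 h and 1331.0 at 12 h. Mcm2, a subunit of the helicase itself, gave 4969.5 at 24 h and 8068.7 at 12 h, and Rrm1, the large subunit of ribonucleotide reductase, 5503.5 at 24 h and 8422.2 at 12 h. Their 12 h signals were near those of untreated cells, at 1547.6, 7687.9 and 8033.4. E2f2 and E2f1, transcription factors of the list, were not lower, with differences of 0.39 and 0.17.

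An E2F site (TTTGGCGC or TTTCGCGC on either strand) stood in 11 of 34 promoters of this list (32.4%). It stood in 1.87% of promoters of genes above the floor and 0.929% of all. The list was written from known roles in replication, so this share does not bear on the step in time. The examples are Mcm5, a helicase subunit, and Uhrf1, a factor that maintains DNA methylation, chosen for their match. Capitals mark the sites, and in Mcm5 a match on each strand overlaps, so that they form 1 run.
Mcm5: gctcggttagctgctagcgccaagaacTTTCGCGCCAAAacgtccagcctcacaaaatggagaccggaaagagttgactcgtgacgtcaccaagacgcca
Uhrf1: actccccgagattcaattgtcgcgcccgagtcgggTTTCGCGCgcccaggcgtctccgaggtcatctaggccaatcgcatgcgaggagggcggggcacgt
They lie at chr8:75109329-75109428, plus strand, and chr17:56304093-56304192, plus strand, in RefSeq on GRCm38.p6. Mcm5 gave 7595.5 at 24 h and 10466.6 at 12 h, and Uhrf1 2718.2 at 24 h and 3783.8 at 12 h. With SP600125 Uhrf1 gave 1100.8 at 24 h and 2692.9 at 12 h, which was the wider step of the pairs.

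Regulators of the cycle did not move as 1 group. Of 20 CDK inhibitors, D cyclins and pocket proteins, 9 were higher and 11 lower. Cdkn2d, an inhibitor of CDK4 and CDK6, had 290.2, 660.4 and 371.5 at 0, 12 and 24 h. E2f5, a repressive E2F factor, had 1618.5, 517.1 and 1193.2, and with SP600125 it was 1541.8 at 24 h and 1409.3 at 12 h. Of 25 genes of p53 response and DNA repair, 14 were lower, among them Fancd2 of the Fanconi pathway, with 522.1 at 24 h and 1002.4 at 12 h, although 1 of its 3 other probe sets gave 0.41. Sesn1, a stress-induced inhibitor of mTORC1 signalling, was 2-fold higher, with 1878.7 at 24 h and 914.7 at 12 h, although 1 of its 3 other probe sets gave -0.57.

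Myc, which drives growth and ribosome synthesis, had signals of 4364.8, 1497.1 and 2788.5 at 0, 12 and 24 h, so that part of the early loss was regained. With SP600125 it was 1896.6 at 24 h and 1613.2 at 12 h. Its partner Max and the antagonists Mnt and Mxi1 were higher too. At 24 h against 12 h, Max gave 400.4 against 221.6, Mnt 502.7 against 276.9 and Mxi1 1199.4 against 677.6. With SP600125 Max was lower at 24 h, with 276.5 against 393.1 at 12 h, while Mnt gave 551.4 against 317.3 and Mxi1 1716.2 against 955.0. The 41 genes of the MYC and ribosome list as a whole had a median of -0.05, with 17 higher and 24 lower, beside medians of -0.69 at 12 h and -0.65 at 24 h against untreated cells.

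Genes of NF-κB signalling were mostly higher at 24 h. Of 19 members, 18 were higher (53.4% of all genes were), with a median of 0.49, and 9 were at least 1.5-fold higher (7.95% of all genes). With SP600125 16 were higher (53.1% of all genes) and the median was 0.38. Traf1, an adaptor of TNF receptors, gave 310.9 at 24 h and 118.6 at 12 h, and Nfkbiz, a nuclear inhibitor of the IκB family, 470.3 at 24 h and 200.5 at 12 h. Both had 12 h signals close to the untreated 109.4 and 181.5. Tnfaip3, the ubiquitin editor A20 that limits NF-κB and shares only its name with the cell line, gave 1307.1 at 24 h and 654.2 at 12 h, a 2.00-fold difference just under the limit. Nfkb2, the p100 subunit, gave 744.8 at 24 h and 387.4 at 12 h. None of the 19 passed the adjusted limma threshold, and 12 had a positive effect at an unadjusted p under 0.05 (8.31% of all genes tested).

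An NF-κB site stood in 8 of 16 promoters of the list (50.0%), against 12.2% of promoters of genes above the floor. The list was written from known genes of the pathway, so this share does not bear on the step in time. The site stood in 11.4% of promoters of the late gains. It stood in 12.5% of those of the 24 genes that gained in both intervals. The promoter of Tnfaip3 held a pair of matches, shown in capitals.
Tnfaip3: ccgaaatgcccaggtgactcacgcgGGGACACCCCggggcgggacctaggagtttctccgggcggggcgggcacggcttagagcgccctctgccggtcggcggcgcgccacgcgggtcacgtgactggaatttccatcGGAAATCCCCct
It lies at chr10:19015411-19015560, minus strand, in RefSeq on GRCm38.p6.

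Survival genes of these pathways were higher as well. Birc3, an inhibitor of apoptosis, gave 10791.6 at 24 h and 6177.3 at 12 h, with a limma effect of 0.67 ± 0.10 and an adjusted p of 0.0648. Mcl1, an anti-apoptotic BCL-2 protein, gave 10657.4 at 24 h and 6040.8 at 12 h, and its 5 other probe sets were also higher. Bcl2l1, which encodes the anti-apoptotic BCL-XL, gave 5120.7 at 24 h and 3307.5 at 12 h, and its 2 other probe sets were higher too. The pro-apoptotic members Pmaip1 and Bmf were also higher. Pmaip1 gave 1312.9 at 24 h and 824.5 at 12 h, and Bmf 1642.9 at 24 h and 937.1 at 12 h, but the other probe set of Bmf gave -0.52. Of the 14 BCL-2 family genes 10 were higher, against 53.4% of all genes, with a median of 0.20, and 4 were lower.

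Interferon-stimulated genes were higher in 21 of 26 members (53.4% of all genes were), with a median of 0.40. Of the 26, 4 were 2-fold higher (1.65% of all genes). With SP600125 the median was 0.33 and 18 were higher (53.1% of all genes). Usp18, which removes ISG15 and damps interferon signalling, gave 61.6, 173.8 and 565.3 at 0, 12 and 24 h. Oasl1 gave 280.0 at 24 h and 118.1 at 12 h, and Zbp1, a sensor of Z-form nucleic acid, 163.2 at 24 h and 79.2 at 12 h. Dhx58, a regulator of the RIG-I pathway, gave 213.3 at 24 h and 93.6 at 12 h, but its other probe set gave -0.31. Ifit2 was lower, with a difference of -0.60, and Ifih1 had -0.42. At an unadjusted limma p under 0.05 12 of the 26 had a positive effect and 2 a negative one (8.31% and 6.98% of all genes tested). The lowest adjusted p was 0.0885.

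An interferon response element (ISRE, which is GAAA, any 2 letters and GAAA, on either strand) stood in 11 of 21 promoters of the list (52.4%), against 3.36% of promoters of genes above the floor and 3.99% of all. The list was written from known interferon-stimulated genes, so this share does not bear on the step in time. The element stood in 3.8% of promoters of the late gains, which are not a list of interferon genes. Among the 24 genes that gained in both intervals it stood in 0 of the 16 with a promoter (0.0%). Trim30a, a ubiquitin ligase, and Irgm1, a GTPase of cell defence, are shown because their elements lie close to the start, with the element in capitals and overlapping elements joined.
Trim30a: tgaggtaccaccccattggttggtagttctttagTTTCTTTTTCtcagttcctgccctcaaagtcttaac
Irgm1: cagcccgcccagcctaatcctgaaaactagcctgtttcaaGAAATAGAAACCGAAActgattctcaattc
They lie at chr7:104465194-104465263, minus strand, and chr11:48871421-48871490, minus strand, in RefSeq on GRCm38.p6. Trim30a gave 996.7 at 24 h and 503.3 at 12 h, and Irgm1 282.8 at 24 h and 197.5 at 12 h.

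**Figure D4:**
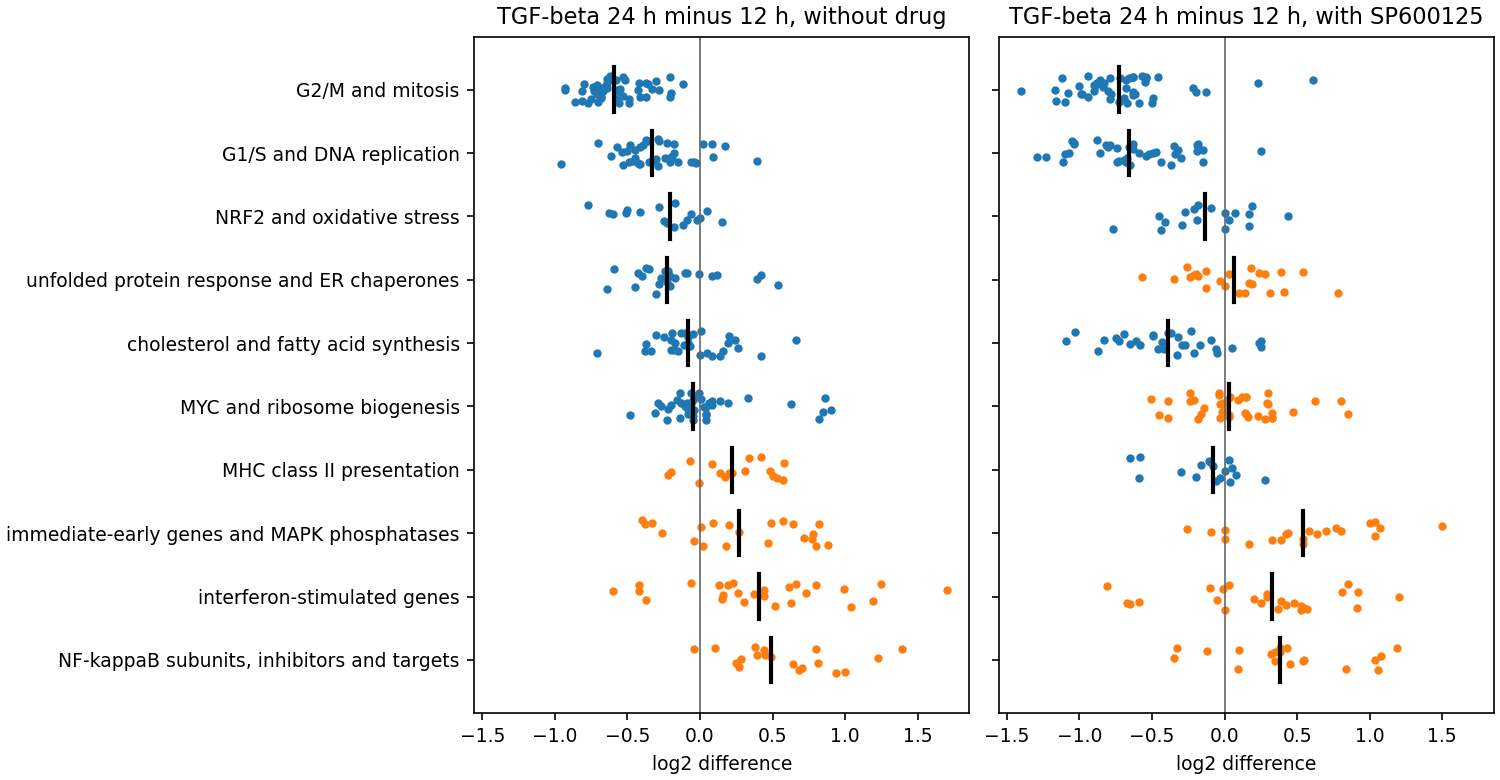
Log2 differences between 24 h and 12 h of TGF-β for the members of 10 gene lists, without drug (left panel) and with SP600125 (right panel), 1 point a gene and a black bar for the median. Points are blue where the median of the list is under 0 and orange otherwise. The G2/M list is lowest in both panels (-0.60 and -0.73), and the NF-κB list is at 0.49 and 0.38.

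Immediate-early genes were higher in 16 of 21 members (53.4% of all genes were), with a median of 0.27 without drug and 0.54 with SP600125. Egr1, a zinc-finger factor of the immediate response, gave 2101.0, 2892.9 and 5093.9 at 0, 12 and 24 h, and 10513.3 at 24 h with SP600125, against 3722.0 at 12 h. Junb, an AP-1 subunit that Smads are known to induce, had 1709.5 at 24 h and 891.4 at 12 h, and 1705.6 at 24 h and 994.1 at 12 h with SP600125. Smad target genes were higher in 18 of 22 members, against 53.4% of all genes, with a median of 0.22. Of the receptors, Tgfbr1, the type I receptor of TGF-β, gave 1031.7, 5368.3 and 8169.6 at 0, 12 and 24 h, though its 2 other probe sets gave -0.16 and 0.17. Tgfb1, the ligand, gave 2026.9 at 24 h and 1501.8 at 12 h, and its other probe set gave -0.07.

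Genes of antigen presentation were mostly higher without drug. Of 17 MHC class II genes 13 were higher at 24 h without drug (53.4% of all genes were), with a median of 0.22. With SP600125 6 of the 17 were higher (53.1% of all genes were), with a median of -0.08. H2-Ab1, a class II β chain, gave 22611.2 at 24 h and 15234.7 at 12 h without drug, and 10131.7 at 24 h and 10711.1 at 12 h with it. Ciita, the master activator of class II genes, gave 548.3 at 24 h and 393.5 at 12 h without drug, and 309.8 at 24 h and 316.2 at 12 h with it. None was 1.5-fold higher, and the difference between the pairs was not tested.

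Cytokine and receptor genes were mostly higher without drug. Tnf gave 237.3, 142.9 and 335.8 at 0, 12 and 24 h without drug, and 85.1 at 24 h and 92.7 at 12 h with SP600125. Of the 26 cytokine and receptor genes 20 were higher without drug (53.4% of all genes were), with a median of 0.27. With the drug 12 were higher (53.1% of all genes were), with a median of 0.0. Il4ra, the receptor chain for IL-4, gave 389.6 at 24 h and 212.0 at 12 h without drug, and 401.4 at 24 h and 213.3 at 12 h with it. Cxcr5, the follicle-homing chemokine receptor, gave 1432.4 at 24 h and 795.6 at 12 h without drug, and 830.4 at 24 h and 603.8 at 12 h with it.

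Genes of B cell identity were mixed, and none of the 27 transcription factors was 2-fold higher or lower. Bach2, a repressor of plasma cell differentiation, gave 2095.7 at 24 h and 1139.7 at 12 h, and its other probe sets gave 0.90 and 1.06. Spib, an Ets factor of B cells, gave 4677.7, 2880.8 and 4965.9 at 0, 12 and 24 h. Foxp1 gave 3115.7 at 24 h and 2012.7 at 12 h, and its 7 other probe sets were higher too. Of the 27 B cell and plasma cell factors 18 were higher, against 53.4% of all genes, with a median of 0.10. Of the 28 genes of the receptor and its signalling 16 were higher, with a median of 0.12, a share near that of all genes.

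Genes of quiescence and nutrient sensing were mixed. Of 28 FoxO, autophagy and quiescence genes 19 were higher (53.4% of all genes were), with medians of 0.12 without drug and 0.40 with SP600125. Txnip, an inhibitor of thioredoxin that limits glucose uptake, gave 4789.0 at 24 h and 2543.1 at 12 h, and 8345.5 at 24 h and 4511.0 at 12 h with SP600125. Its limma effect was 0.90 ± 0.11 with an adjusted p of 0.0532. Map1lc3a, of the autophagosome, gave 793.8 at 24 h and 397.0 at 12 h, although its other probe set gave -0.0. Aldoc, a glycolytic aldolase, gave 1685.0 at 24 h and 601.0 at 12 h. Of the 28 glycolysis and hypoxia genes 18 were lower, against 46.6% of all genes, with a median of -0.22.

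Lists of stress genes differed in direction. Of 18 NRF2 and oxidative stress genes 16 were lower at 24 h, against 46.6% of all genes, with a median of -0.21. Txnrd1, thioredoxin reductase, gave 4286.3 at 24 h and 6632.2 at 12 h, and Hmox1, which degrades haem, 5523.2 at 24 h and 7849.2 at 12 h. Of 24 genes of the unfolded protein response 19 were lower without drug, against 46.6% of all genes, with a median of -0.22. In the pair with SP600125 14 of the 24 were higher, a share near the 53.1% of all genes, and the median was 0.06. Of 29 genes of the ATF4 and amino acid response 23 were higher without drug (53.4% of all genes were), with a median of 0.19. With SP600125 17 were higher (53.1% of all genes were), with a median of 0.02. Chac1, which degrades glutathione, gave 1311.1 at 24 h and 775.5 at 12 h without drug, and 3235.8 at 24 h and 3198.1 at 12 h with it. Creld2, a chaperone-like protein of the endoplasmic reticulum, gave 2430.8 at 24 h and 3776.9 at 12 h without drug, and 1452.2 at 24 h and 1479.1 at 12 h with it. Housekeeping genes were lower in 11 of 13 members, against 46.6% of all genes, with a median of -0.14. In the pair with SP600125 10 of the 13 were lower, against 40.9% of all genes, with a median of -0.36.

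Losses formed 3 classes. Late losses, with the 12 h signal within 1.5-fold of untreated cells, numbered 46, and 30 (65.2%) were also lower with SP600125, against 40.9% of all genes. Aars2, a mitochondrial alanyl-tRNA synthetase, gave 107.5 at 24 h and 337.8 at 12 h, and 130.2 at 24 h and 261.6 at 12 h with SP600125. Sema6c, a semaphorin, gave 185.5 at 24 h and 607.2 at 12 h, but its other probe set gave 0.07. Continued losses numbered 3. Among them Car2, a carbonic anhydrase, gave 519.7, 260.3 and 94.6 at 0, 12 and 24 h.

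Transient gains, over 1.5-fold higher at 12 h than in untreated cells and then at least 2-fold lower at 24 h, numbered 51, and 41 of them were within 1.5-fold of the untreated signal again. A mean signal under 200 was found for 43 of the 51. With SP600125 21 of them (41.2%) were lower at 24 h, against 40.9% of all genes, which is the background share. The class is defined by a high 12 h signal, and 1 array decides that value for each gene.

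Sema3f, a secreted semaphorin, was the widest of these, with 393.8, 728.8 and 134.2 at 0, 12 and 24 h without drug, and 230.0 at 24 h and 477.1 at 12 h with SP600125. Gpr31b, a G protein-coupled receptor gene, gave 52.8, 429.7 and 129.6, and 23.4 at 24 h and 154.0 at 12 h with SP600125. Both were 2-fold lower at 24 h in each pair. Snai2, a repressor of epithelial genes, gave 136.0, 618.4 and 195.0, but with SP600125 it was 277.8 at 24 h and 251.7 at 12 h, and its other probe set gave 0.05.

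Regained genes, over 1.5-fold lower at 12 h than in untreated cells and at least 2-fold higher at 24 h, numbered 67. By 24 h 58 of them were within 1.5-fold of untreated cells. In the pair with SP600125 48 (71.6%) were higher at 24 h, against 53.1% of all genes. Of the 67, 2 were 2-fold higher there, against 2.01% of all genes in that pair. At 12 h with SP600125 34 of the 67 were below SP600125 alone and 32 above it, against 45.5% of all genes below and 47.4% above. A mean signal under 200 was found for 49 of the 67. This class is defined by a low 12 h signal, and 1 array decides that value for each gene. Nfkbid, a nuclear IκB protein, gave 604.6, 235.8 and 712.1 at 0, 12 and 24 h, and with SP600125 487.2 at 24 h and 433.7 at 12 h. Git1, a scaffold of focal adhesions, gave 327.5, 90.0 and 273.5, and with SP600125 432.1 at 24 h and 209.5 at 12 h.

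The pair with SP600125 was set beside both directions. Of the 191 genes 2-fold higher without drug, 152 (79.6%) were higher with SP600125, against 53.1% of all genes. There 29 were 2-fold higher (2.01% of all genes in that pair). Of the 100 genes 2-fold lower, 52 (52.0%) were lower with SP600125, against 40.9% of all genes. There 9 were 2-fold lower (1.27% of all genes in that pair). Across 11555 genes Pearson's r between the pairs was 0.29 and Spearman's rank correlation 0.30, and across the 4284 genes with a mean signal over 1000 r was 0.56. Genes are not independent replicates, and the pairs share the cell line and the array type.

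**Figure D5:**
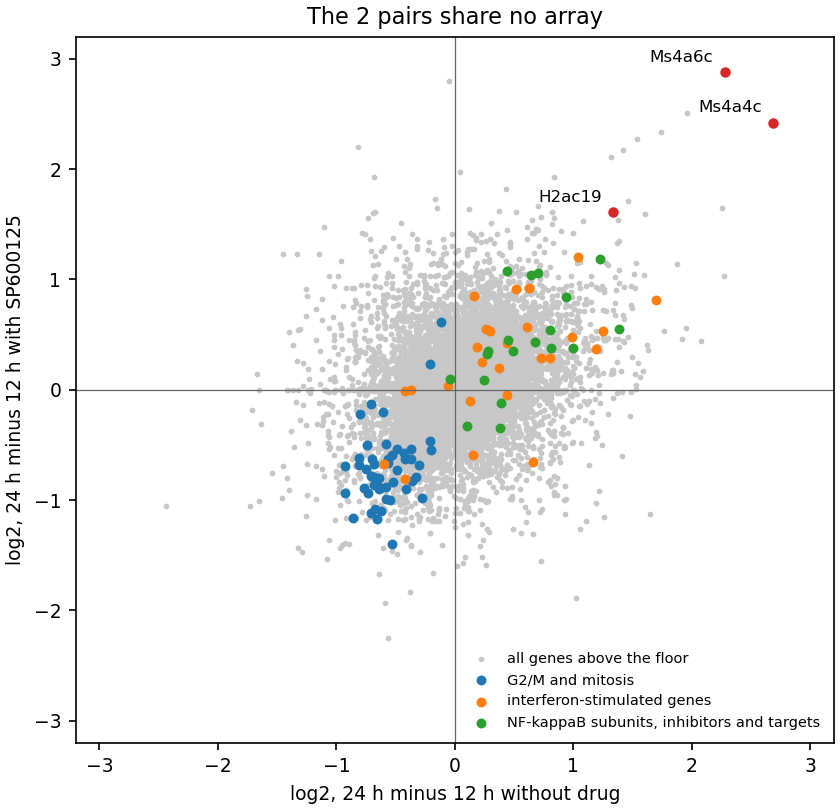
Log2 difference between 24 h and 12 h of TGF-β without drug (horizontal axis) against that with SP600125 (vertical axis) for 11555 genes. Of the 48 blue G2/M genes, 46 lie under 0 on both axes, and Ms4a4c, Ms4a6c and H2ac19 lie in the upper right.

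Probe sets of 1 gene gave a further reading. For 5192 genes with another probe set above the floor, the differences of the pair of probe sets had an r of 0.27. Of the 2-fold genes 99 had other probe sets, and in 54 all of these had the same sign, while in 19 another was also past 2-fold. Vav2, a signalling protein of the antigen receptor pathway, was 2-fold higher by its brightest probe set, at 363.1 at 24 h and 178.6 at 12 h, but its other probe sets gave -0.78 and -0.36, and the mean of all of them was -0.04. When the probe sets of each gene were averaged, other genes described here as 2-fold higher or lower no longer were. The difference was then 0.98 for Aldoc, 0.29 for Dhx58, 0.58 for E2f5, 0.98 for H1f2, 0.88 for Nfkbiz, 0.42 for Sesn1, 0.67 for Tsc22d3 and 0.52 for Zbp1. It was -0.81 for Sema3f, -0.55 for Sema6c and -0.81 for Snai2. With the floor at the 60th percentile it was 0.75 for Dhx58 and 0.37 for Zbp1, while Bhlhe40 stayed past 2-fold at 1.19. With quantile normalization it was 0.98 for Zbp1 and 0.97 for Vav2.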

How the data were processed

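Total RNA of 6 conditions was hybridised to 6 Affymetrix arrays, 1 for each. The deposited values are linear intensity signals, for which the submitters' processing notes name GCOS 1.2. Its settings are not given in the labels or file headers used. Each deposited column had a 2% trimmed mean of 500.0, and no further scaling was applied. Of 45101 probe sets 34958 had 1 gene symbol in the platform annotation, 932 had several and 9211 were not listed, which gave 18194 genes. The brightest probe set over the 6 arrays stood for a gene. Signals under 74.2 were set to that floor and log2 was taken.

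A 2-fold rule, the one in the study design, was applied to the 24 h and 12 h arrays, and classes were split by a 1.5-fold step between 12 h and untreated cells. limma 3.58.1 in R 4.3.3 fitted TGF-β state and drug to genes that exceeded the floor on 2 or more arrays, with an intensity trend and 5.97 prior degrees of freedom, and was tested on simulated data. Named genes were the widest 2-fold differences whose other probe sets had the same sign, the widest members of each list and class, and the limma calls. Genes shown for their promoter sites were chosen for those sites. The members and the 38 gene lists were chosen with earlier results of these data known. Of 1006 listed genes 925 were matched. Promoters of 300 bases came from RefSeq (GRCm38.p6). Alternatives were other floors, scalings, probe set rules and sets of arrays. The number of arrays limits the precision.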

Additional observations from a re-analysis of the deposited data

Results flagged for a closer look

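In 11 genes the step from 12 h to 24 h was at least 2-fold in opposite directions in the pair without drug and the pair with SP600125. Each value rests on 1 array for each time, and the difference between the pairs was not tested. Without drug and with SP600125 the log2 differences were -1.45 and 1.23 for Tbxa2r, a thromboxane receptor, -1.33 and 1.23 for Adamtsl2, -1.15 and 1.23 for Ccdc102a, -1.10 and 1.48 for Sgtb, and -1.06 and 1.03 for Ascl3. These 5 were lower without drug. They were 1.02 and -1.89 for Arhgef25, 1.06 and -1.26 for Obsl1, 1.11 and -1.19 for Grtp1, 1.19 and -1.03 for Rab11fip4, 1.26 and -1.15 for Ntrk2, a neurotrophin receptor, and 1.65 and -1.13 for Fbxo10. These 6 were higher without drug.

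Probe sets with no single gene name were outside the comparisons. Of 3626 above the floor, 58 (1.6%) were at least 2-fold higher at 24 h than at 12 h and 41 (1.13%) at least 2-fold lower.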

How the results depend on the processing

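Counts of 2-fold genes depended on the floor and the probe set rule, the balance of the pair with SP600125 also on the scaling (163 higher and 187 lower with each array scaled to the same median), and the counts of limma calls depended on nearly every choice. With the floor at the 25th percentile 1199 genes were 2-fold higher and 1132 lower without drug, and 1538 and 1076 with SP600125. With the floor at the 60th percentile these counts were 95, 30, 122 and 80, and averaging a gene's probe sets gave 95, 53, 126 and 93. Without drug, genes above the floor on both arrays numbered 127 higher and 56 lower. Late gains, continued gains, regained genes, late losses, continued losses and transient genes numbered 535, 80, 584, 408, 42 and 682 with the 25th percentile. With the 60th percentile the late gains, regained genes, late losses, continued losses and transient genes numbered 55, 24, 18, 1 and 11, and with the mean of probe sets 45, 33, 25, 1 and 27. In limma 18 genes rose and 15 fell after quantile normalization, 12 rose and 16 fell with the 25th percentile, 111 rose and 141 fell with the 60th, and 2 fell with no filter. With the mean of probe sets, with the 4 TGF-β arrays only, without the TGF-β 24 h SP600125 array, without the TGF-β 12 h SP600125 array and with a variance prior without trend, 0 genes rose and 0 fell, and an unadjusted p under 0.05 was found for 1571, 1688, 1048, 867 and 1544 genes. The medians of the G2/M and G1/S lists kept their sign under both scalings, both floors and the mean of probe sets. Of 225 named genes, 1 reversed: Vav2 was -0.04 with the mean of its probe sets. The causes were not tested. No paired analysis was possible because each condition has 1 array and no replicate number. The dim genes, the single array for each time and the unstated settings of the signal program limit every value.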
